A study of Mus musculus with 15 samples.

Results

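Skin treated with MC903 for 7 days was compared between mice labelled Trpv3 knockout and mice labelled wild type, with 3 RNA-seq libraries per genotype. The account covers every gene with an FPKM (fragments per kilobase of gene, scaled to library depth) of at least 0.5 in at least 3 of these 6 libraries. That rule kept 16116 of the 54532 genes in the skin table. The series holds 15 samples, of which 12 are skin and 3 are dorsal root ganglion. The 6 untreated skin libraries, 3 labelled knockout and 3 wild type, enter here as the genotype difference without treatment, and the ganglion samples were not analysed here. The agent MC903, or calcipotriol, is an analogue of vitamin D that provokes an atopic dermatitis-like inflammation when applied to mouse skin. The series' design text speaks of conditional TRPV3 knockouts, but the labels name no Cre driver, no deleted cell type, no vehicle, no age and no strain. Nor do they state that the libraries of one group are different animals, so the p-values reflect the scatter among these libraries alone, which may be technical.

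TRPV3 is a warmth-sensitive cation channel found mainly in keratinocytes, where calcium entering through it takes part in barrier formation, hair growth and itch. PAR2, the product of F2rl1, is a receptor that serine proteases such as tryptase and the kallikreins switch on by cutting its outer end. IL-33 and TSLP are alarmins, cytokines that epithelial cells release on damage, and IL-33 acts through the receptor ST2 (Il1rl1) on mast cells, basophils, innate lymphoid cells and T cells. Mast cells are long-lived tissue cells that depend on the growth factor receptor KIT and release histamine and proteases, and basophils reach the skin from blood. The study asked how TRPV3 bears on mast cells and on the cytokines downstream of TRPV3 and PAR2.

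The 6 libraries held 16869716 to 18370064 reads on genes, and values above 0 were listed for 23281 to 24927 genes. For a gene of 1 kb, a single read amounted to 0.054 to 0.0615 FPKM. The leading principal component of the 6 libraries held 74.5% of the variance and placed all libraries labelled knockout on one side of all wild type libraries. The keratins Krt5 and Krt14, which define skin epithelium, read at least 476 and 2890 FPKM in each of the 6 libraries, as skin does. Wild type replicate 3 stood apart for interferon-induced genes, for Tslp and for the keratins Krt1 and Krt10. Log2 fold changes and counts that rest on it are given with and without it. Libraries carried transcripts of epidermis, dermis, nerve, muscle, fat and immune cells together, and in such RNA fewer cells of a type and less RNA per cell cannot be told apart. Levels below are FPKM in the order of replicates 1, 2 and 3. Log2 fold changes are labelled knockout minus wild type, computed on log2(FPKM + 0.5) and given ± the standard error (SE) from limma, a scale on which low genes show less than their full change.

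Trpv3 (ENSMUSG00000043029, mm10 chromosome 11, 73267388 to 73300363) was lower in the libraries labelled knockout but not absent. It read 6.82, 6.78 and 4.73 FPKM in the libraries labelled knockout and 16.1, 17 and 19 in wild type. The groups did not overlap, and the log2 fold change was -1.45 ± 0.22 (limma adjusted p = 0.00027). Untreated libraries labelled knockout had a mean of 3.15 FPKM against 1.97 in untreated wild type, so the lower level was not seen there. Counts run over every exon of the gene, so a deletion of some exons would not be visible in them. The genotype is therefore written as the labels give it.

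The sequences before the start of Trpv3 and of loricrin (Lor), the most abundant protein of the cornified envelope and a structural gene of the outer epidermis, are shown because both genes fell in this comparison. Each is the 250 bases upstream of the RefSeq start on GRCm38.p6, read on the gene's own strand, at chr11:73267270-73267519 (plus strand) for Trpv3 and chr3:92083143-92083392 (minus strand) for Lor. Capitals mark matches to the letters TGANTCA, the binding motif of AP-1 factors, and to TATAAA, the core of the TATA box, searched on both strands. The motifs do not overlap each other in these sequences.
Trpv3: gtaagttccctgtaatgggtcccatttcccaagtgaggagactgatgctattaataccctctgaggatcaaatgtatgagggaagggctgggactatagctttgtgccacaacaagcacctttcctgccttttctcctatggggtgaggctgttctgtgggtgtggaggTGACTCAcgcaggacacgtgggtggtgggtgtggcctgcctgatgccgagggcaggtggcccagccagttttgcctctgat
Lor: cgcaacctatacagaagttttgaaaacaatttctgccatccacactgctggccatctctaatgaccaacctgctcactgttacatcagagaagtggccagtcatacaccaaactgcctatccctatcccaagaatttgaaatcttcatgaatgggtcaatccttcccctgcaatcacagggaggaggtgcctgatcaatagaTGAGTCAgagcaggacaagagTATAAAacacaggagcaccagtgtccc
The TGANTCA match began 81 bases before the RefSeq start of Trpv3 and 48 bases before that of Lor, and the TATAAA match of Lor began 27 bases before its start. The gene bounds given above for Trpv3 begin inside the printed window. By those bounds part of the window, with the TGANTCA match of Trpv3, lies within the gene. Of 32851 promoter windows of this length (27025 genes) 6.75% held TGANTCA and 12.4% held TATAAA. These are matches of letters, not measured binding sites, and the 2 genes were chosen after their values were seen.

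Among protease-activated receptors 1 gene fell and 2 rose, where 56.3% of all genes tested passed in either direction. F2rl1 (PAR2; ENSMUSG00000021678, chromosome 13, 95511732 to 95525227) read 4.46, 4.36 and 4.22 FPKM labelled knockout and 9.75, 8.28 and 10 in wild type, with no overlap (-1.02 ± 0.21, limma adjusted p = 0.0016). F2r, the thrombin receptor PAR1, went the other way, at 15.7, 16.8 and 15.5 against 3.93, 4.2 and 3.11 (1.97 ± 0.1, limma adjusted p = 8.8e-07). F2rl2, the thrombin-binding PAR3, was also higher (1.37 ± 0.2, limma adjusted p = 0.00018). In untreated skin F2r had nearly the same mean level in both genotypes, 11.3 labelled knockout and 11.7 wild type. The wild type MC903 libraries were thus the low group for F2r among the 4 groups.

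Other channels of the TRP family went both ways. Of 10 family members tested 6 were higher and 4 lower, Trpv3 among the lower (6 and 3 under TPM, and 3 higher without wild type replicate 1). Among all genes tested 27.8% were higher and 28.4% lower. Of the 10, Mcoln3 reached the filter through the libraries labelled knockout alone, so its difference was set by the filter. Trpv4, a warmth-sensitive channel of keratinocytes and endothelium, read 18.5, 16 and 14.5 FPKM labelled knockout and 10.8, 9.31 and 12.9 in wild type (0.56 ± 0.18, limma adjusted p = 0.022), and its call was lost without replicate 1 labelled knockout and without wild type replicates 1 and 2, each left out alone (largest limma adjusted p, 0.083). Trpv6, an epithelial calcium channel that vitamin D induces, read 2.74, 2.49 and 0.947 against 6.79, 5.59 and 5.9 (-1.45, limma adjusted p = 0.001). Trpm7, a magnesium-conducting channel with a kinase domain, rose by 0.9 and Pkd2, a channel of primary cilia, by 1.13, and the lysosomal channel Mcoln1 fell by 0.65 on the log2 scale. Trpv4 and Trpv6 did not overlap between the groups, which held for 65.9% of all genes tested. The sensory neuron channels Trpv1, Trpa1 and Trpm8 were below the filter, with 0 to 23 reads per library.

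The alarmins did not pass the threshold. Il33 (ENSMUSG00000024810, chromosome 19, 29925114 to 29960718) read 54.6, 71.7 and 66.8 FPKM labelled knockout and 90.7, 88.6 and 77.9 in wild type. The groups did not overlap, yet the log2 fold change of -0.42 ± 0.19 had a limma adjusted p of 0.077. It passed with limma voom on the recovered reads, with library weights and in a fit of these 6 libraries alone (limma adjusted p of 0.048, 0.026 and 0.022, in that order). It did not pass in the other 17 alternatives. In these the difference ranged from -0.5 without replicate 2 labelled knockout (limma adjusted p = 0.072) to -0.12 under TPM (limma adjusted p = 0.65). Without replicate 1 labelled knockout it was -0.3 (limma adjusted p = 0.24). Tslp read 387, 487 and 291 against 224, 223 and 549, and wild type replicate 3 exceeded all libraries labelled knockout (0.33 ± 0.33, limma adjusted p = 0.41). Without that library Tslp passed as higher than in wild type (0.77, limma adjusted p = 0.024). Il1rl1, the ST2 receptor gene (chromosome 1, 40429570 to 40465415), was higher at 4.8, 5.02 and 6.05 against 1.49, 2.69 and 1.71 (1.26 ± 0.21, limma adjusted p = 0.00045). Its co-receptor Il1rap rose as well (1 ± 0.13, limma adjusted p = 6.9e-05). Cyp24a1, the vitamin D-degrading enzyme that calcipotriol induces, did not pass (-0.41, limma adjusted p = 0.065). Single libraries decided this, since it passed without replicate 1 or 2 labelled knockout (limma adjusted p = 0.045 and 0.034) and was -0.18 without replicate 3 labelled knockout, -0.26 without wild type replicate 3 and -0.11 under TPM.

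**Figure D1:**
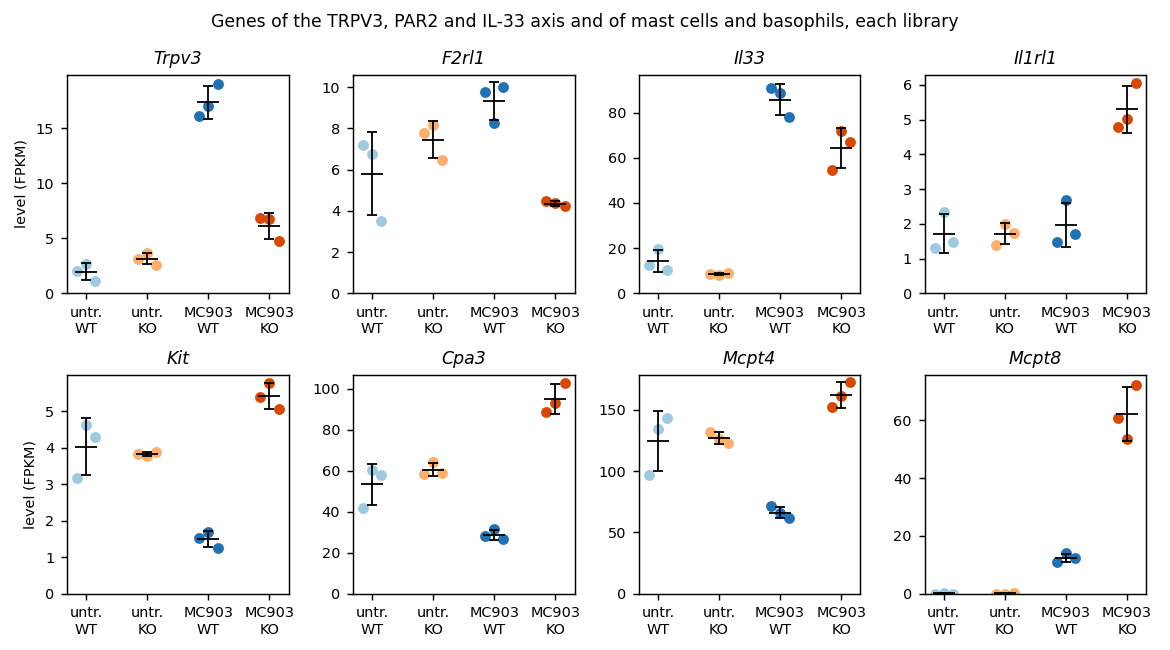
FPKM of 8 genes in the 12 skin libraries (points, 1 per library; lines, group mean with the SD of 3 libraries; KO, labelled knockout; WT, wild type; untr., untreated), each panel with its own axis from 0. Under MC903 Trpv3 and F2rl1 sit lower and Il1rl1, Kit, Cpa3, Mcpt4 and Mcpt8 higher in the libraries labelled knockout without overlap, and Il33 sits lower without passing the test.

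Basal keratinocyte markers were lower in the libraries labelled knockout, so epithelial genes were also divided by them within each library. The geometric mean of 8 basal keratinocyte markers was 65.5, 71.8 and 54.2 FPKM labelled knockout and 163, 138 and 134 in wild type. Divided by that mean, Trpv3 was 0.104, 0.0944 and 0.0874 against 0.0984, 0.123 and 0.142, and the groups overlapped (exact two-sided permutation p = 0.2, adjusted 0.28). F2rl1 also overlapped on this scale, with a ratio of group means of 1.06 (exact permutation p = 0.5, adjusted 0.583). Il33 was 0.833, 0.999 and 1.23 against 0.555, 0.642 and 0.582, so that relative to these markers it was 1.72-fold higher in the libraries labelled knockout with no overlap. Tslp was 2.55-fold higher on this scale, again with no overlap. Both had an exact permutation p of 0.1, which is the smallest that 3 libraries against 3 can give, and 0.175 after Benjamini-Hochberg adjustment over the 7 genes compared. Klk6, a kallikrein protease, kept a ratio of 0.993, while the wound keratin Krt16 was still 1.71-fold and Krt1 1.9-fold lower, both without overlap. For Krt1 the ratio was 7.07 in wild type replicate 3 and 15.4 and 14 in wild type replicates 1 and 2. The ratios depended on the markers. Relative to the 5 markers that are not keratins, Trpv3 (a ratio of group means of 0.574) and F2rl1 (0.771) were lower without overlap. So were Klk6 (0.723), Krt16 (0.422) and Krt1 (0.376), and Il33 (1.25) and Tslp (1.88) overlapped. Relative to the 3 keratins, F2rl1 was 1.81-fold, Il33 2.94-fold, Tslp 4.21-fold and Klk6 1.68-fold higher without overlap. Trpv3 (1.33), Krt16 (1) and Krt1 (0.913) overlapped on that scale. For all 7 genes the comparison with basal keratinocyte RNA thus changed with the markers used. The ratios were chosen after the data had been seen.

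**Figure D2:**
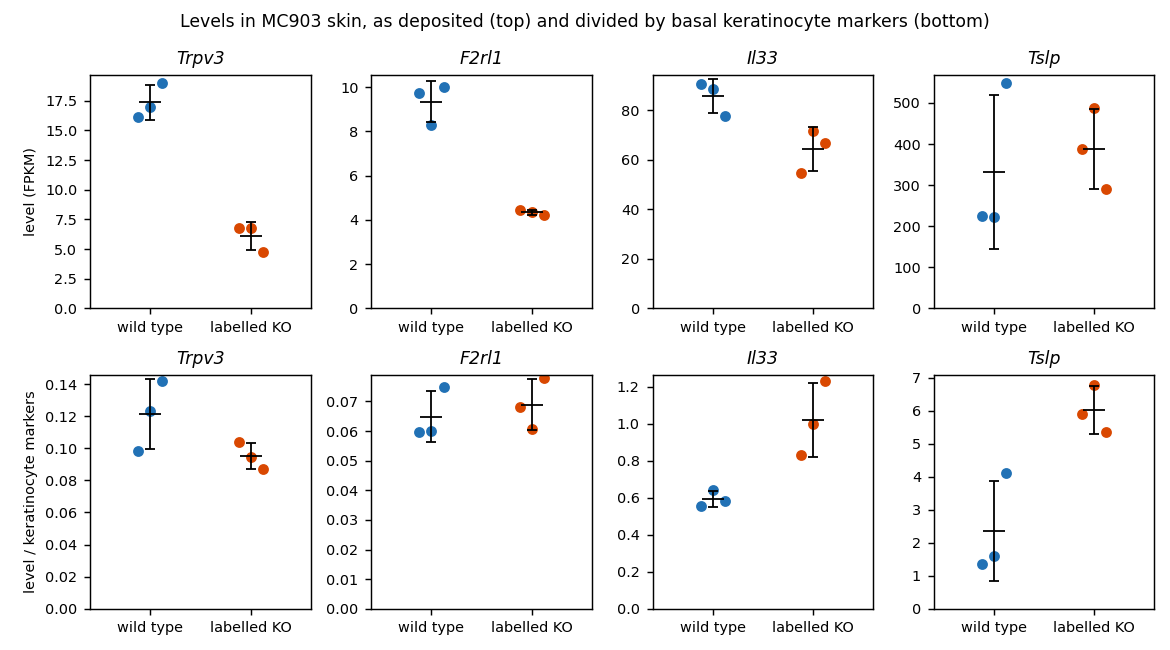
Levels in the 6 MC903 libraries as deposited (top, FPKM) and divided by the geometric mean of all 8 basal keratinocyte markers of the same library (bottom, ratio), with points for libraries and bars for group means. Trpv3 and F2rl1 do not overlap in the top panels and overlap in the bottom panels, where Il33 is higher in each library labelled knockout.

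Among all genes tested, 9067 of 16116 passed the threshold of a limma adjusted p of 0.05, which is 56.3% of genes tested. Of these 4487 (27.8% of those tested) were higher and 4580 (28.4%) lower in the libraries labelled knockout, and the median log2 fold change of all genes was -0.033. At least 2-fold differences were found for 1289 higher and 1170 lower genes. The 3 values of each group did not overlap for 10613 genes (65.9%). A passing gene is thus the common case in this comparison, and counts in the gene lists above and below are to be read against these shares. Of the genes called, 49.5% were higher with the values as deposited, 57% after scaling by total reads and 73% after scaling to TPM (6558 higher and 2422 lower), which moved the median of all genes to 0.222. Small decreases therefore depended on the scaling. For the direction in which more members of a list passed, counts that shrank by more than 1.5 times under TPM are given with both values. So are those that leaving out 1 library moved as far. Counts in the other direction are not all followed in this way. A member that reached the filter in 1 genotype alone had to differ, and 11 of the lists held 1 such member and 2 lists held 2. Through the libraries labelled knockout alone these included Prox1 of endothelium, Cx3cr1 of monocytes and macrophages, Cfb of complement and Mcoln3 of the TRP channels. Through wild type alone they included Mx2 of the interferon response, Serpinb3d of the clade B serpins and Btc of the EGF receptor ligands.

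Genes of the living epidermis were lower. Of 8 basal keratinocyte markers 7 were lower (median log2 fold change -1.16). Krt5, the basal keratin, read 560, 640 and 476 FPKM labelled knockout and 2640, 1820 and 1700 in wild type (-1.86 ± 0.19, limma adjusted p = 1.6e-05). Its partner Krt14 (-1.79), the stem cell-associated Krt15 (-2.22) and the hemidesmosome collagen Col17a1 (-1.38) fell too. Dst, a linker of hemidesmosomes, was the member that did not pass (-0.18, limma adjusted p = 0.22). Of 5 keratins of wounded and hyperproliferative epidermis 4 were lower. Krt16 read 1390, 1610 and 1060 against 6550, 4730 and 4500 (-1.96 ± 0.5, limma adjusted p = 0.0065), and Krt6a, Krt6b and Krt17 fell by 1.44, 1.75 and 1.47 on the log2 scale. No library labelled knockout reached the lowest wild type library for these 4 keratins. Cell cycle genes were lower in 14 of 26 members with none higher (median -0.35), with the replication licensing factor Mcm7 at -0.75 and the mitotic activator Cdc20 at -1, but 3 were lower and 1 higher under TPM, 8 were lower without wild type replicate 1 and 9 without replicate 3 labelled knockout.

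The genes of cornification were lower too. Of 23 terminal differentiation genes 16 were lower and none passed in the other direction (median -1.01). Lor read 293, 212 and 132 FPKM labelled knockout and 1270, 968 and 641 in wild type (-2.19 ± 0.35, limma adjusted p = 0.00033). Flg, whose product filaggrin bundles keratin and feeds the skin's natural moisturiser, read 12.2, 13.2 and 10.3 against 33.8, 36.2 and 22.2 (-1.31 ± 0.19, limma adjusted p = 0.00019). Both genes were lower in each library labelled knockout than in each wild type library. The suprabasal keratins were uneven. Krt78 (-2.41), Krt77 (-3.33) and Krt1 (-2.04) fell, while Krt10 and Krt2 did not pass (limma adjusted p = 0.17 each), with Krt10 at 795 FPKM in wild type replicate 3 against 3120 and 2810 in the other wild type libraries. Without that library both passed (-1.43 and -0.9, limma adjusted p = 0.0045 and 0.042), and Krt1 was -2.45 (limma adjusted p = 0.0001). Asprv1, the protease that processes filaggrin, fell by 1.51. Of 14 small proline-rich genes 8 were lower (4 under TPM, and 5 without replicate 3 labelled knockout or wild type replicate 2), with Sprr2a1 at 86.8, 77.6 and 70.6 against 343, 311 and 354, and of 21 late cornified envelope genes 8 were lower (2 lower and 1 higher under TPM, 4 lower without replicate 3 labelled knockout, and 5 without wild type replicate 1 or 3). These 2 families contain near-identical copies, and how reads were divided among the copies is uncertain.

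Serine proteases of the epidermis, among them candidate activators of PAR2, were lower in 12 of 15 members, and their inhibitors in 4 of 6 (median of all 21, -1.06). Klk6 read 350, 372 and 278 FPKM labelled knockout and 718, 690 and 854 in wild type (-1.18 ± 0.28, limma adjusted p = 0.0044). Klk8 fell by 1.27, the membrane protease St14 (matriptase) by 1.21 and Tmprss4 by 1.46, and the matriptase inhibitor Spint2 by 1.47 on the log2 scale. Klk10 did not pass (-0.15). The proteases and the inhibitors thus moved in the same direction. Of 18 tight junction and desmosome genes 11 were lower and 2 higher (4 and 2 under TPM, and 7 lower without replicate 3 labelled knockout), with the plaque proteins Pkp3 (-1.48) and Jup (-1.14) lower and the desmosomal cadherin Dsg2 higher (0.62). Barrier lipid genes were lower in 11 of 19 (4 under TPM, 6 without replicate 3 labelled knockout and 7 without wild type replicate 1), including the lipoxygenase Aloxe3 (-1.39) and the ceramide synthase Cers3 (-1.04). Glycolysis genes were lower in 13 of 16 (5 lower and 1 higher under TPM, and 7 lower without replicate 3 labelled knockout or wild type replicate 1), and of 5 vitamin D response genes 3 were lower, Vdr (the receptor) by 0.61 on the log2 scale (limma adjusted p = 0.013, and 0.19 under TPM), and 1 higher (1 and 1 under TPM).

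Of 8 receptor and signalling genes of the IL-17 and IL-22 axis 3 were lower and 2 higher, and of 6 IL-20 family genes 3 were lower and none higher. Il17rc, a chain of the IL-17A and IL-17F receptor, read 21.3, 23.6 and 21.5 FPKM labelled knockout and 89.7, 82.5 and 81.1 in wild type (-1.91 ± 0.1, limma adjusted p = 8.8e-07). Il17re, the receptor chain for IL-17C, fell by 1.49, whereas Il17ra, the chain shared by both receptors, rose by 0.62. Il20ra and Il20rb, the chains of the receptor for IL-19, IL-20 and IL-24, fell by 1.45 and 1.59. None of the 6 ligand genes of the IL-17 and IL-22 list reached the filter, and their reads numbered 0 to 17 per library. In the IL-1 and IL-36 family 7 of 22 genes were higher and 6 lower. The receptor Il1r1 (1.1), the IL-18 receptor chains Il18r1 (0.85) and Il18rap (1.83) and the cytokine Il1b rose, and Il1b read 83.7, 119 and 87.1 against 14.7, 58 and 40.4 (1.53 ± 0.45, limma adjusted p = 0.014). The IL-36 genes Il1f6 and Il1f9, their antagonist Il1f5 and their receptor Il1rl2 fell by 1.18, 1.21, 1.57 and 0.78. The calls of Il1f6 and Il1f9 ended under TPM and without wild type replicate 1, and that of Il1f9 also without replicates 1 and 3 labelled knockout (largest limma adjusted p, 0.07 and 0.079). The shares of this list that passed in each direction were near those of all genes. Il1f8, another IL-36 gene, did not pass, with 60.3, 71.6 and 45.1 against 60.2, 56.2 and 60.3.

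Mast cell genes were higher. Of 17 markers tested 12 rose and none fell (median 0.94). Kit (ENSMUSG00000005672, chromosome 5, 75574916 to 75656722) read 5.39, 5.77 and 5.07 FPKM labelled knockout and 1.53, 1.69 and 1.26 in wild type (1.57 ± 0.13, limma adjusted p = 4.9e-06). Cpa3, the mast cell carboxypeptidase, read 88.8, 92.9 and 103 against 28.3, 31.4 and 26.5 (1.71 ± 0.13, limma adjusted p = 3.5e-06). The chymase Mcpt4 read 152, 161 and 173 against 71.2, 65.6 and 61.8 (1.28 ± 0.13, limma adjusted p = 1.9e-05). In these 3 genes the lowest library labelled knockout was above the highest wild type library. Ms4a2, the beta chain of the IgE receptor, rose by 2.33, and Hdc, which makes histamine, by 1.59. Tpsb2, a tryptase and a known activator of PAR2, did not pass, at 35.1, 41.2 and 45.8 against 45.7, 34.6 and 34.9 (0.09 ± 0.19, limma adjusted p = 0.72). Nor did the second tryptase Tpsab1 or the itch receptor Mrgprb2. The mucosal proteases Mcpt1 and Mcpt2 rested on 0 to 29 reads and were below the filter. In untreated skin Kit had a mean of 3.82 FPKM labelled knockout and 4.03 in wild type, and Mcpt4 127 and 125.

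Basophil genes showed larger differences, with 7 of 9 markers higher and none lower (median 1.67). Mcpt8, the basophil protease, read 60.8, 53.5 and 72.1 FPKM labelled knockout and 11.1, 14 and 12.2 in wild type (2.27 ± 0.15, limma adjusted p = 2e-06). Prss34, a second basophil protease, read 14.2, 12.8 and 16 against 0.787, 0.202 and 0.539 (3.92 ± 0.2, limma adjusted p = 8.8e-07). Both were close to 0 in untreated skin, with means of at most 0.0888 FPKM. The mast cell and basophil lists share genes of the IgE receptor, and Ms4a2, Cpa3 and Hdc are known in both cell types, so these counts are not independent. Il4, a cytokine of basophils and T cells, did not pass (0.18, limma adjusted p = 0.47). Of 9 eosinophil genes 4 reached the filter, and 2 of these did so through the libraries labelled knockout alone, so no count is given. Siglecf, a receptor of eosinophils and one of those 2, read 1.17, 1.25 and 1.32 against 0.0214, 0.198 and 0.0854, and the eosinophil peroxidase Epx had 0 reads in 5 libraries and 1 in the sixth. Alox15, a lipoxygenase of eosinophils and macrophages, read 9.52, 7.17 and 11.4 against 0.731, 0.902 and 1.02 (2.81 ± 0.17, limma adjusted p = 1.4e-06).

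Ptprc, a gene of leukocytes in general, moved with these genes, but total leukocyte RNA was not measured. Ptprc (CD45), carried by all nucleated blood cells, read 8.96, 11.7 and 12.2 FPKM labelled knockout and 1.82, 2.38 and 1.96 in wild type. Divided by Ptprc in the same library, Kit was 0.602, 0.492 and 0.416 against 0.84, 0.71 and 0.644, and so lower relative to CD45. Cpa3 (a ratio of group means of 0.622) and Mcpt4 (0.456) were also lower on this scale without overlap, while Mcpt8 (0.949) and the macrophage gene Mrc1 (0.921) overlapped. Prss34 (5.05) and Siglecf (2.49) were higher without overlap. Each gene that did not overlap had an exact two-sided permutation p of 0.1, the smallest possible here, and 0.15 after Benjamini-Hochberg adjustment over the 9 genes compared. Of the 17 mast cell genes tested, 16 were lower without overlap when divided by Ptprc, and Ms4a2 overlapped (1.14). Ptprc itself was higher by 1.96 to 2.41 log2 units across the alternatives. Any gene that rose by less than Ptprc is lower on this scale, and 106 of all 16116 genes were called at least 4-fold higher. The share of all genes lower on this scale was not computed, so the count cannot be read as a result about mast cell genes.

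Myeloid genes were higher as well. Of 14 monocyte and macrophage markers 13 rose (median 1.44), with Csf1r, the macrophage growth factor receptor, at 62.1, 68.7 and 84.9 FPKM against 21.4, 21.6 and 20.1. Of 10 neutrophil markers 7 rose (median 1.29), with the chemokine receptor Cxcr2 at 25.8, 37.4 and 37.2 against 6.98, 8.66 and 10.8 (1.87 ± 0.19, limma adjusted p = 1.7e-05). S100a8 and S100a9, made by neutrophils and by inflamed keratinocytes, did not pass (limma adjusted p = 0.14 each) although their values did not overlap, and passed with limma voom and in a fit of the 6 libraries alone. Of 17 genes of alternative macrophage activation 11 were higher and 2 lower (median 0.99). Mrc1, the mannose receptor, read 119, 161 and 169 against 25.9, 29 and 35.4 (2.29 ± 0.15, limma adjusted p = 2.1e-06), and Msr1 and F13a1 rose by 2.1 and 1.59. Arg1, arginase, read 76.1, 80.5 and 73 against 219, 180 and 115 (-1.11 ± 0.21, limma adjusted p = 0.0011). Retnla and Chil3 did not pass. Of 13 genes of MHC class II presentation 12 were higher, including Cd74 and the transactivator Ciita.

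Of 8 chemoattractants of monocytes tested 5 were higher and 3 did not pass, and those of T cells went both ways. Ccl12 read 69.7, 65 and 63.3 FPKM labelled knockout and 10.4, 11.2 and 12 in wild type (2.51 ± 0.18, limma adjusted p = 2.4e-06), and Ccl2 and Ccl7 rose by 1.42 and 1.47. Ccl8, which attracts type 2 T cells in mouse skin, read 715, 852 and 1350 against 363, 359 and 364 (1.37 ± 0.23, limma adjusted p = 0.0005). The eosinophil attractants Ccl11 (0.56) and Ccl24 (1.41) rose too, Ccl11 with a call that 5 of 20 alternatives did not keep (largest limma adjusted p, 0.088), and Ccl17 and Ccl22 did not pass, although Ccl17 did, as lower, without replicate 1 labelled knockout (limma adjusted p = 0.041) and Ccl22, as higher, under TPM (limma adjusted p = 0.027). Ccl27a, the keratinocyte attractant of skin-homing T cells, fell by 1.23. Of 8 chemokine receptor genes 7 were higher, 2 of the 8 having reached the filter through the libraries labelled knockout alone, with Ccr2 of monocytes at 18.7, 23.4 and 25.3 against 2.94, 4.96 and 6.8. Type 2 cytokine genes themselves were not called. Of the 4 tested ligands Il4, Il13, Tslp and Il33, 0 passed with limma on log2(FPKM + 0.5), 1 (Il33) had an unadjusted p under 0.05, and 1 (Il33) passed with limma voom. Of 9 receptors 5 were higher. Il5, Il9, Il25 and Il31 had at most 3 reads in any of the 6 libraries.

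T cell genes were mixed. Of 17 tested 9 were higher and 1 lower (median 0.55). Cd4, which macrophages and dendritic cells can also carry, read 4.99, 6.12 and 8.95 FPKM labelled knockout and 1.01, 1.07 and 0.768 in wild type (2.28 ± 0.2, limma adjusted p = 6.8e-06), and Foxp3, the regulator of regulatory T cells, read 1.62, 2.43 and 1.61 against 0.54, 0.57 and 0.418. The invariant receptor chains Cd3d and Cd3g did not pass and Cd3e rose by 0.55, which 9 of 19 alternatives did not keep, among them the removal of any wild type library (largest limma adjusted p, 0.14). The receptor constant genes went apart, since Trbc2 fell, at 13.8, 20.2 and 16.6 against 47, 34.8 and 42 (-1.28 ± 0.23, limma adjusted p = 0.00066), and Trdc of gamma-delta T cells rose by 1.34. Gata3, a factor of type 2 lymphocytes that keratinocytes and hair follicles also express, fell by 1.7. Interferon response genes were lower in 8 of 20 and higher in 2 (median -0.47). Single libraries decided these counts. Gbp2 read 77.3, 102 and 16.5 in wild type against 10, 24.8 and 14.7, and without wild type replicate 3 there were 14 lower and 2 higher (median -0.79). There were 3 lower without wild type replicate 1, wild type replicate 2 or replicate 1 labelled knockout, and 4 without replicate 3 labelled knockout. The number higher was 1 without replicate 2 labelled knockout and 3 without wild type replicate 2. The call of Gbp2 itself was not kept in 5 of 20 alternatives (largest limma adjusted p, 0.082), and it had a limma adjusted p of 0.00012 without that library. Under TPM 4 were lower and 3 higher.

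Complement genes were higher, while eicosanoid and itch genes went both ways. Of 15 complement genes 11 rose and none fell (median 0.85), with C3, the central component, at 200.3, 248 and 261 FPKM against 100.2, 104 and 93.7 (1.24 ± 0.17, limma adjusted p = 0.00012) and the receptors C5ar1 and C3ar1 higher by 1.69 and 1.94. In leukotriene synthesis Alox5, the 5-lipoxygenase of leukocytes, read 13.3, 12.7 and 13.1 against 3.58, 3.55 and 2.68 (1.85 ± 0.11, limma adjusted p = 2.1e-06), and its partner Alox5ap rose by 1.52. Ptgs1, the constitutive cyclooxygenase, fell by 1.3 and Ptges, a prostaglandin E synthase, by 0.42 on the log2 scale (limma adjusted p = 0.37 for Ptges under TPM), so that 5 of 16 eicosanoid genes rose and 5 fell (7 and 2 under TPM), shares near those of all genes. Ltb4r1, the leukotriene B4 receptor, read 29.9, 33.7 and 24.1 against 63.3, 63.7 and 55 (-1.05 ± 0.13, limma adjusted p = 5.3e-05). Of 15 itch mediators and receptors 7 rose and 3 fell (10 and 1 under TPM, and 1 fell without wild type replicate 3), and Il6, its receptor chain Il6st and the histamine receptor Hrh4 rose by 1.32, 1.27 and 1.31.

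Of 13 antimicrobial genes 3 rose and 2 fell (5 rose and 0 fell under TPM). The number that fell was 0 without replicate 3 labelled knockout or wild type replicate 1. It was 1 without replicate 1 labelled knockout or wild type replicate 2. Defb3, a beta-defensin, read 151, 118 and 98.4 FPKM labelled knockout and 29.4, 27.3 and 18.8 in wild type (2.26 ± 0.22, limma adjusted p = 1.3e-05), while Pglyrp4, a peptidoglycan recognition protein, fell by 0.81, a call lost under TPM (limma adjusted p = 0.13), without replicate 3 labelled knockout and without wild type replicate 1. Stefins and clade B serpins, protease inhibitors of keratinocytes and neutrophils, were lower in 10 of 17 and higher in 1 (4 and 1 under TPM, and 6 lower without replicate 3 labelled knockout). The number higher was 0 without replicate 2 or 3 labelled knockout and without wild type replicate 1 or 2. Serpinb3a read 16.3, 24.4 and 17.9 against 74.8, 77.9 and 94.8, but its family has close copies. Of 11 genes of the EGF receptor family and its ligands 4 fell and 1 rose (2 fell and 4 rose under TPM), with the receptors Erbb2 and Erbb3 lower by 1.04 and 0.87 on the log2 scale and the ligand Epgn higher, at 80.3, 79.2 and 74.7 against 28.4, 42.2 and 40.8. Of 8 secreted Wnt antagonists 5 rose, Sfrp2 by 2.16, and 2 fell, Sfrp1 by 0.72 on the log2 scale.

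**Figure D3:**
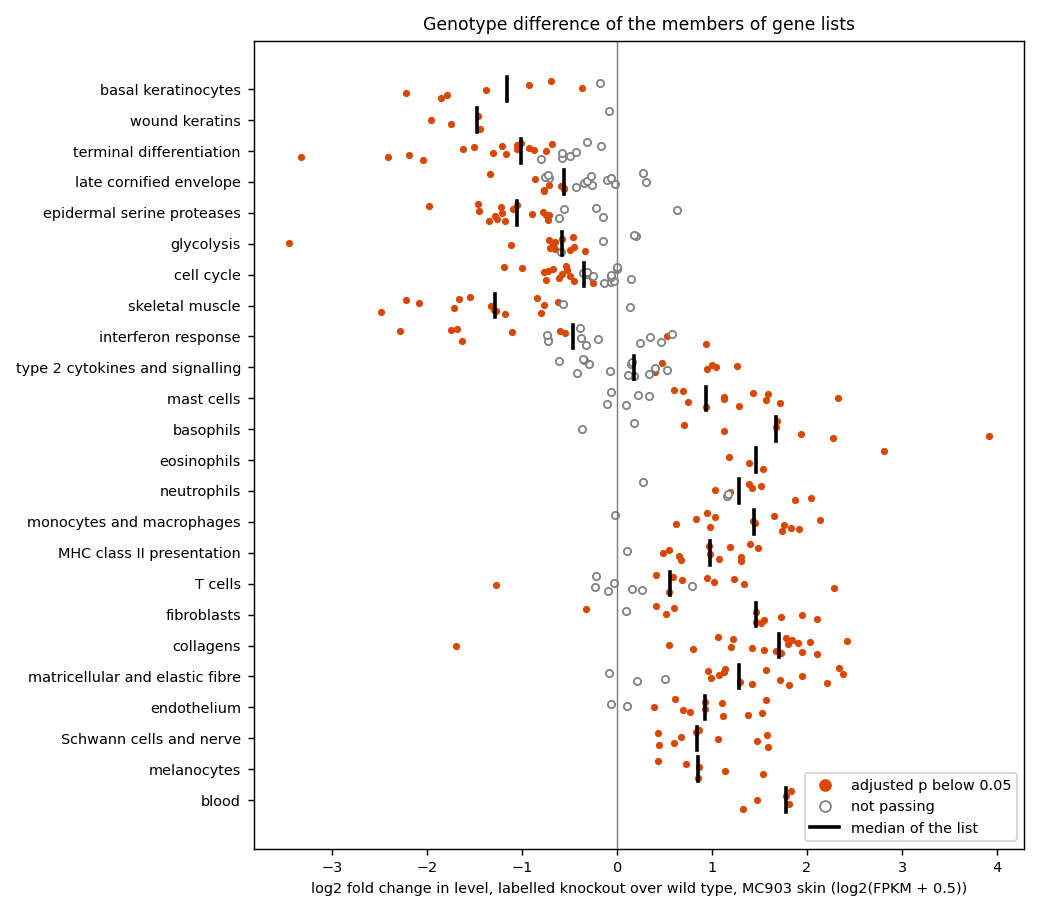
Log2 fold changes (labelled knockout minus wild type, limma on log2(FPKM + 0.5)) of the members of selected gene lists in MC903 skin, 1 point per tested gene, filled where the adjusted p was under 0.05, with a line at the list's median. Epidermal, glycolysis, cell cycle, muscle and interferon response lists have medians below 0, and the other immune, matrix, nerve and vessel lists above it. In the eosinophil list 2 of the 4 genes reached the filter through the libraries labelled knockout alone.

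Dermal matrix genes were higher. Of 18 collagen genes 17 rose (median 1.7) and Col7a1, the anchoring fibril collagen made largely by keratinocytes, fell by 1.7. Col1a1, the main collagen of dermis, read 459, 338 and 434 FPKM labelled knockout and 91.8, 118 and 77.5 in wild type (2.1 ± 0.29, limma adjusted p = 0.00014). Col6a3, a chain of the microfibrillar collagen, read 52.7, 50.8 and 54.5 against 10.9, 14.6 and 12.3 (2.03 ± 0.14, limma adjusted p = 2.2e-06). Of 12 fibroblast genes, which share 3 collagens with that list, 10 rose and Dpp4 fell (-0.33), a call that 7 of 20 alternatives did not keep, TPM among them (largest limma adjusted p, 0.65). Of 17 matricellular and elastic fibre genes 14 rose, among them the wound matrix protein Tnc and the fibrillin Fbn1, and of 13 metalloproteinases and their inhibitors 10 rose. Timp3, a metalloproteinase inhibitor bound to matrix, read 89.3, 77.9 and 83 against 11.8, 15.8 and 11.6 (2.64 ± 0.15, limma adjusted p = 1.1e-06). Wif1, a secreted Wnt inhibitor of dermal cells, read 258, 224 and 236 against 41.3, 38.1 and 39.6 (2.57 ± 0.14, limma adjusted p = 1.1e-06).

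Nerve, vessel, pigment and cartilage genes were higher in the same libraries. Of 10 Schwann cell and nerve genes 10 rose (median 0.84). Of 13 endothelial genes 11 rose, including Kdr and Pecam1 of blood vessels and Flt4 and Lyve1 of lymphatic vessels. Melanocyte genes rose in 6 of 6 tested, 1 of which reached the filter through the libraries labelled knockout alone, such as the pigment enzyme Tyrp1, and 10 of 12 cartilage genes rose, with the proteoglycan Acan at 55, 49.9 and 51.2 FPKM against 13.3, 12.6 and 13.4. Cartilage lies within the ear, and the labels give no body site for the skin. Blood genes were higher in 5 of 5, with the haemoglobin Hbb-bs at 476, 379 and 620 against 127, 128 and 324, a call lost without wild type replicate 1 (limma adjusted p = 0.052). Haemoglobin copies are nearly identical, and the single values are uncertain.

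Skeletal muscle was the other tissue that was lower. Of 16 muscle genes 14 fell (median -1.29), with the fast-fibre gene Actn3 at 5.37, 5.49 and 7.3 FPKM labelled knockout and 32, 46.5 and 31.2 in wild type (-2.49 ± 0.3, limma adjusted p = 5.3e-05). Acta1, the skeletal actin, read 273, 263 and 407 against 613, 952 and 585, and Trim63, a ubiquitin ligase of wasting muscle, fell by 2.85. Adipocyte genes did not move together, with 4 of 14 higher, such as Plin1 and Lep, and 3 lower, such as Cfd (5 higher and 1 lower under TPM). Without replicate 2 labelled knockout 0 were lower and Cfd lost its call (limma adjusted p = 0.055), and 1 was lower without replicate 1 labelled knockout or wild type replicate 3. Sebaceous gland genes were higher in 6 of 14, led by Scd1, a desaturase, at 1130, 793 and 819 against 292, 386 and 268, and lower in 3 (0 under TPM, and 1 without replicate 2 labelled knockout). Of 15 hair shaft keratins 2 fell and of 13 keratin-associated proteins 3 fell (1 without replicate 3 labelled knockout), on levels that differed widely between libraries of a group. The shares of epidermis, dermis, muscle and blood in each piece of skin were not measured, and their part in the values of the genes above was not tested.

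Other genes with the most extreme differences had several kinds of identity. Zfp871, a zinc finger gene, read 7.58, 8.01 and 8.06 FPKM labelled knockout and 0.445, 0.698 and 0.532 in wild type (2.99 ± 0.14, limma adjusted p = 7.2e-07). Cd300ld4 and Cd300ld, myeloid surface receptors, and Tlr8, an RNA sensor of myeloid cells, rose by 3.76, 2.59 and 2.55. Igfbp5, a binding protein of insulin-like growth factors, read 185, 163 and 186 against 23.7, 30.5 and 24. Among the falls, Chil4, a chitinase-like protein of type 2 inflammation, read 2.99, 1.57 and 1.61 against 62.7, 32.7 and 35.4 (-4.09 ± 0.28, limma adjusted p = 2.2e-06), and Cyp2g1, a cytochrome P450, read 0.103, 0.31 and 0.529 against 7.05, 9.92 and 3.44. Gapdh passed the rule too, but its values of 1.49 to 1.59 and 4.17 to 68.1 FPKM are low for a glycolytic enzyme that all cells use. The genome holds many near-identical copies of this gene, and its value is uncertain. The extreme Trbd1, Mir133a-1, Mir133a-2, Mir99a, Snord58b and Snord32a values rest on a few reads each.

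The nuclear RNAs Neat1 and Malat1 were lower in the libraries labelled knockout, while most noncoding genes did not pass. Neat1, the nuclear scaffold RNA of paraspeckles, read 16.6, 14 and 16.2 FPKM labelled knockout and 146, 104 and 125 in wild type (-2.95 ± 0.16, limma adjusted p = 8.8e-07), and Malat1, another nuclear RNA, 36.1, 31.3 and 41.6 against 90.3, 107 and 138. By annotated class, 140 of 358 long intergenic RNAs fell and 50 rose (median -0.35), 132 of 364 antisense genes fell and 31 rose (median -0.43), and 40 of 106 small nucleolar RNA genes fell and 2 rose (median -1.03). Of 77 small nuclear RNA genes 10 fell and 3 rose, and of 794 processed pseudogenes 123 fell and 79 rose. Of 61 unprocessed pseudogenes 8 fell and 18 rose. Among all genes tested 28.4% fell and 27.8% rose. For 13675 protein-coding genes 3897 fell and 4223 rose, with a median of 0.00161. These classes moved with the genotype together with the tissue lists, and their part in those results, or that of RNA quality, was not tested. Without strand in the counting, antisense genes cannot be separated from the genes they overlap.

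The genotype difference under MC903 was tested against the genotype difference in untreated skin as a term of the same model. The 2 differences share no libraries. The test passed for 6976 of 16116 genes (43.3%), with 3504 shifted up and 3472 shifted down under MC903. Epidermal genes shifted down in most lists, in 21 of 23 terminal differentiation genes, 20 of 21 late cornified envelope genes and 19 of 21 epidermal serine protease and inhibitor genes. Their medians were 1.23, 1.29 and 1.05 in untreated skin and -1.01, -0.56 and -1.06 under MC903. Lor, for example, averaged 842 FPKM labelled knockout and 317 in wild type without treatment, and the difference of the differences was -3.67 (limma adjusted p = 0.00027). Klk6 averaged 11.7 and 1.75 without treatment (-3.72, limma adjusted p = 9e-05), and Trpv3 shifted by -2.06 (limma adjusted p = 0.00055).

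Mast cell genes shifted up in 10 of 17, with Kit at 1.62 (limma adjusted p = 0.00011) and Mcpt4 at 1.23 (limma adjusted p = 0.00053). Prss34 shifted by 3.85 (limma adjusted p = 2.7e-05). Fcer1a, the chain of the IgE receptor that binds IgE on mast cells and basophils, shifted by 2.79 (limma adjusted p = 0.00015). Monocyte and macrophage genes shifted up in 12 of 14 and nerve genes in 9 of 10. Collagens behaved otherwise. Their median was 1.29 in untreated skin and 1.7 under MC903, 4 of 18 shifted up and 1 down, and for Col1a1 the shift was -0.43 (limma adjusted p = 0.43). Il33 did not shift at the threshold (0.26, limma adjusted p = 0.46).

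**Figure D4:**
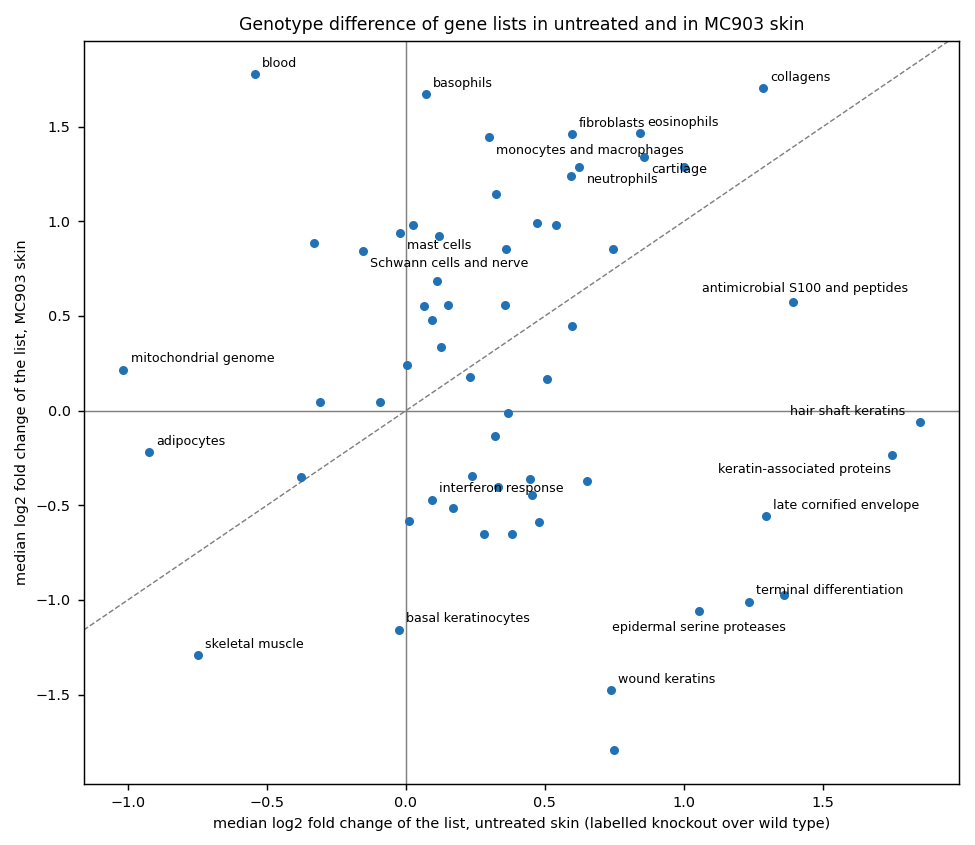
Median log2 fold change (labelled knockout minus wild type) of each gene list in untreated skin (horizontal) and in MC903 skin (vertical), 1 point per list with at least 4 tested genes and a dashed line where both are equal. Cornification and protease lists lie to the right and below 0, basophil and nerve lists near 0 on the horizontal axis and above 0 on the vertical axis, and collagens above 0 on both.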

How the data were processed

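The submitters' processing notes name the mm10 build and featureCounts. The aligner, annotation release and FPKM tool were not given in the sources used here. For 12 skin libraries of poly-A RNA the authors deposited gene-level FPKM values. FPKM times gene length gave whole reads in each library for 100% of values (tolerance 0.01), with 16869716 to 18370064 reads per MC903 library, while the depth that the FPKM imply was 0.917 to 1.021 of that sum, so the values were taken as scaled already.

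Limma was fitted to log2(FPKM + 0.5) over the 4 skin groups with 8 residual degrees of freedom, moderated with eBayes and a mean trend. Tests were two-sided, and Benjamini-Hochberg adjustment ran over 16116 genes. The procedure was also run on simulated reads with known fold changes, and the outcome of that run is not reported here. Of the genes kept, 652 passed the filter through 1 genotype only, so 599 calls among them are partly set by the filter. The gene lists and their members were chosen with earlier results of these data known. Named genes were 7 of the axis, the 12 highest and 12 lowest fold changes among passing genes that did not overlap, with a mean of at least 1 FPKM in the higher group and no predicted name, and up to 4 passing members plus the most abundant member of each list. Ccl11, Ccl17, Ccl22, Ccl24, Ccl27a, Cd3d, Cd3e, Cd3g, Chil3, Col1a1, Dpp4, Dst, Epx, Fcer1a, Hdc, Il13, Il18r1, Il1f5, Il1f6, Il1f8, Il1f9, Il1rl2, Il25, Il31, Il4, Il5, Il9, Klk10, Klk6, Krt1, Krt10, Krt2, Malat1, Mcpt1, Mcpt2, Mrgprb2, Ptprc, Retnla, S100a8, Tpsab1, Tpsb2, Trdc, Trpa1, Trpm8 and Trpv1 were named after their values were seen. Within each group, libraries differed beyond read sampling (8.03 to 28.5 in the MC903 groups for chi-square divided by its degrees of freedom). Promoters came from RefSeq. One gene that the rule names is not reported here. Alternatives were other pseudocounts, filters, scalings and moderation, library weights, limma voom on recovered reads, a replicate block, a 2-fold threshold and leaving out each MC903 library, and, chosen after seeing the data, protein-coding genes of at least 200 bp and levels relative to markers. Fits ran in R (version 4.3.3, limma 3.58.1). Tables and plots were made in Python (version 3.11.15) using matplotlib 3.10.9, pandas 2.3.3 and numpy 2.4.6.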

Additional observations from a re-analysis of the deposited data

Results flagged for a closer look

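The genotype difference under MC903 differed from the genotype difference in untreated skin, by the test of that difference in the model, for 6976 of 16116 genes, and the named genes among them are given here as that shift in log2 units, labelled knockout minus wild type under MC903 less the same in untreated skin, each with a limma adjusted p under 0.05. In the epidermis the shift was -2.13 for Krt5, -2.18 for Krt14, -1.84 for Krt15, -1.44 for Col17a1 and -2.87 for Col7a1. Wound keratins shifted by -2.09 (Krt6a), -3.34 (Krt6b), -4.14 (Krt16) and -2.15 (Krt17), and suprabasal keratins by -3.1 (Krt1), -1.89 (Krt2), -2.09 (Krt10), -4.06 (Krt77) and -3.38 (Krt78). Cornification genes shifted by -3.67 (Lor), -2.04 (Flg), -3.22 (Asprv1) and -2.84 (Sprr2a1). Proteases and their inhibitor shifted by -3.72 (Klk6), -2.59 (Klk8), -1.52 (Klk10), -1.6 (St14), -2.84 (Tmprss4) and -1.72 (Spint2). Junction, lipid and cell cycle genes shifted by -2.13 (Pkp3), -1.87 (Jup), -2.23 (Aloxe3), -1.94 (Cers3), -0.88 (Mcm7) and -1.27 (Cdc20), and Vdr by -0.73.

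Trpv3 shifted by -2.06 and F2rl1 by -1.41, against 2.01 for F2r and 1.24 for F2rl2. Cytokine and receptor genes shifted down by -2.35 (Il17rc), -1.08 (Il17re), -1.18 (Il20ra), -2.13 (Il20rb), -3.26 (Il1f5), -3.9 (Il1f6), -2.39 (Il1f9) and -1.34 (Il1rl2), and up by 0.41 (Il17ra), 1.15 (Il18r1), 1.78 (Il18rap), 1.18 (Il1r1), 0.5 (Il1rap) and 1.23 (Il1rl1). Mast cell and basophil genes shifted by 1.62 (Kit), 1.51 (Cpa3), 1.23 (Mcpt4), 2.6 (Ms4a2), 2.79 (Fcer1a), 1.28 (Hdc), 2.23 (Mcpt8) and 3.85 (Prss34). Other leukocyte genes shifted by 1.85 (Ptprc), 1.14 (Siglecf), 0.88 (Alox15), 1.06 (Cxcr2), 1.2 (Csf1r), 1.62 (Mrc1), 2.11 (Msr1), 1.12 (F13a1), 1.96 (Cd300ld), 3.91 (Cd300ld4), 1.99 (Tlr8), 0.76 (Cd74) and 0.81 (Ciita), and Arg1 by -1.27. T cell genes shifted by 1.57 (Cd4), 0.6 (Foxp3), 0.85 (Cd3e), 2.1 (Trdc), -1.44 (Trbc2) and -1.61 (Gata3). Chemokines and a receptor shifted by 0.97 (Ccl11), 2.15 (Ccl12), 0.78 (Ccl2), 1.1 (Ccl7), 1.58 (Ccr2), -1.78 (Ccl17), -1.49 (Ccl22) and -1.01 (Ccl27a).

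Matrix genes shifted by 0.72 (Col6a3), 1.34 (Fbn1), 2.82 (Timp3), 2.66 (Wif1) and 1.95 (Igfbp5), and Dpp4 by -1.03. Vessel, cartilage, fat, gland and blood genes shifted by 1.54 (Kdr), 1.15 (Pecam1), 1.18 (Flt4), 1.17 (Lyve1), 1.73 (Acan), 2.85 (Lep), 2.08 (Plin1), 1.82 (Scd1) and 2.01 (Hbb-bs). Muscle genes shifted by -2.18 (Actn3) and -2.78 (Trim63). Nuclear and short RNAs shifted by -2.88 (Neat1), -1.47 (Malat1), -4.62 (Mir133a-1), -3.36 (Mir133a-2), -3.62 (Snord32a) and -3.88 (Snord58b), the last 4 on a few reads each. TRP channels shifted by 0.99 (Trpm7), 0.79 (Pkd2), -0.52 (Mcoln1) and -1.77 (Trpv6). Complement, eicosanoid and itch genes shifted by 0.84 (C3), 1.61 (C3ar1), 1.24 (C5ar1), 1.67 (Alox5), 1.18 (Alox5ap), -2.0 (Ptgs1), -0.84 (Ptges), -1.57 (Ltb4r1), 1.27 (Il6), 1.15 (Il6st) and 1.01 (Hrh4). Growth factor, Wnt, serpin and antimicrobial genes shifted by -1.48 (Erbb2), -1.33 (Erbb3), 1.95 (Sfrp2), -0.69 (Sfrp1), -3.97 (Serpinb3a) and -1.83 (Pglyrp4). The remaining genes were Zfp871 (2.74), Chil4 (-3.85), Cyp2g1 (-3.29) and Gapdh (-3.51).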

How the results depend on the processing

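The count of 9067 genes stayed within 1.5 times under the alternatives run, apart from the 2-fold threshold, which left 2459 (1289 higher and 1170 lower) and 2766 for the difference between MC903 and untreated skin (1171 higher and 1595 lower). Scaling to TPM moved the split to 2422 lower genes here, and to 5345 higher and 2103 lower for the difference between treatments. Of the original calls 6909 were called in the same direction under TPM and 0 in the opposite one. Leaving out each MC903 library in turn gave 7847 to 8426 genes (3999 to 4175 higher, 3848 to 4251 lower) and, for the difference between treatments, 5840 to 6616 (2987 to 3315 higher, 2853 to 3301 lower). With library weights the difference between treatments passed for 9008 genes. Same-numbered libraries of the genotypes correlated at -0.0605, 0.0161 and 0.0472, so the numbers were not taken as pairing them, and with a replicate block 9201 and 7034 genes passed. Of 164 named genes tested, 143 were called. Of these, 129 stayed called in each alternative that tested them (20 for 120 genes and 19 for 9). The 2-fold threshold was not counted among these alternatives, and called genes below 2-fold do not pass it. Of 21 uncalled genes, 9 passed in at least 1 alternative. Depth limits genes near 1 read, such as Epx and Il5, whose differences were not detectable here.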
